A study of Mus musculus with 10 samples.

Results

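Axon guidance ligands and receptors are the semaphorins and their plexin receptors, the Slit ligands and Robo receptors, the netrins and Unc5 receptors, and the ephrins and Eph receptors. Their messenger RNA was measured in lymphatic endothelial cells (LECs), which form the inner wall of lymphatic vessels, taken from mice as primary cells. Genes were chosen by their symbols. Of 16251 genes in the table, 62 matched, and 60 of these are guidance genes. The other two, Unc50 and Unc5cl, matched by their letters only. Unc50, which is no guidance receptor, did not pass the test (log2 fold change 0.06, adjusted p = 0.132), and Unc5cl had 1 count in all. Sema5b, Slit3, Epha3, Epha5, Epha8 and Unc5c had no row under these symbols, so they were not analysed here.

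The series has 10 libraries, all of primary mouse LECs. For 5 of them, small interfering RNA (siRNA) against Vegfr2 was delivered at 50 nM with the transfection reagent CALNP, and RNA was taken after 48 h. The other 5 are labelled control. They carry the same siRNA knockdown tag, no control siRNA is named, and nothing says that replicates were separate cultures or names a batch, so a p-value here reflects how far these samples scatter, possibly for technical reasons alone. The title poses the question of what VEGFR2 insufficiency does to lymphatic and hematopoietic transcriptional programs.

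These families were first described as cues that steer growing nerve fibres, and endothelial cells use them as well. Plexins bind semaphorins, alone or with a neuropilin, and act on small GTPases and the actin cytoskeleton. Robo receptors such as Robo1 bind Slits, and Unc5 receptors bind netrins. Eph receptor kinases bind ephrins on a neighbouring cell, so that both cells can receive a signal. In lymphatic vessels, semaphorin 3A with neuropilin-1 and plexin A1, and ephrin-B2 with EphB4, are known for their part in valve formation, and semaphorin 3F is a ligand of neuropilin-2.

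Levels are given as CPM, counts scaled by library size, which compare 1 gene between libraries. Library totals ran from 17946483 to 18239260 estimated counts. Kdr, which encodes VEGFR2 (Entrez gene 16542), had fallen to 14% of control, with a log2 fold change of −2.83 (exact permutation test, two-sided, p = 0.00794, the smallest that 5 against 5 libraries allow). All 7 lymphatic endothelial markers had enough counts to be tested, and their summed level was 11618 to 12657 CPM in control and 8016 to 8712 CPM in siRNA libraries. Of these 6 fell (85.7%, beside 35.2% of all tested genes) and Pdpn rose (log2 fold change 0.81). Of 5 markers of endothelium in general 4 fell (80%), with a median log2 fold change of −0.32. Their sums were 4431 to 4620 CPM in control and 3606 to 3770 CPM in siRNA libraries. The 5 fibroblast markers together stayed at or under 1.59 CPM in every library. Of the 7 Schwann cell and nerve markers 6 had a row, and their sum was 10.9 to 11.7 CPM in control and 23.8 to 25.3 CPM in siRNA libraries. Most of that sum was Tubb3, a tubulin (9.14 and 22.5 CPM), while the glial gene S100b had at most 6 counts in a group of 5 libraries. The 4 epithelial markers with a row summed to 1.22 to 2.46 and 7.68 to 8.73 CPM, through the keratin gene Krt18, with Epcam and Cdh1 at 5 counts or fewer in a group. Of the 5 blood cell markers 2 had a row (41.9 to 49.7 and 30 to 40.4 CPM in sum, through Cd68, with Spi1 at 1 and 0 counts), and the 5 mural cell markers summed to 9.96 to 14 and 10.4 to 12.6 CPM, with Rgs5 at 0 and 1 counts. Of the mural markers Acta2 rose (3.39 to 5.22 CPM) and Pdgfrb fell (6.45 to 4.84 CPM). The part of these markers in the results below was not tested.

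Guidance genes moved in both directions after the siRNA, in near equal numbers. Of the 60 genes, 43 had enough counts to be tested, and 17 of these were higher, 16 were lower and 10 did not pass (edgeR quasi-likelihood test, Benjamini-Hochberg adjusted p under 0.05 over all 12161 tested genes). That is 76.7% of the tested guidance genes, where 71.3% of all tested genes were called. The same held by direction, with 39.5% higher against 36.1% of all genes and 37.2% lower against 35.2%. The median log2 fold change of the 43 genes was −0.04, beside −0.00 over all tested genes. In a bulk library, fewer cells that express a gene and less of its RNA per cell cannot be told apart.

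A larger share of the guidance genes than of all genes passed a threshold on size, a difference that was described and not tested. Tested against a fold of 1.5 (edgeR glmTreat), 14 guidance genes passed (32.6%, beside 8.56% of all tested genes). Of these, 8 were higher, where 3.68% of all genes were, and 6 were lower, where 4.88% were. The median size of the change, in either direction, was 1.38-fold for the guidance genes and 1.16-fold for all tested genes. For 30 of the 43 genes (69.8%) the 5 siRNA libraries lay entirely above or entirely below the 5 control libraries, and this was so for 57% of all tested genes. The 3 called genes whose groups overlapped were Sema3d, Sema4d and Sema6c, all with small changes.

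**Figure D1:**
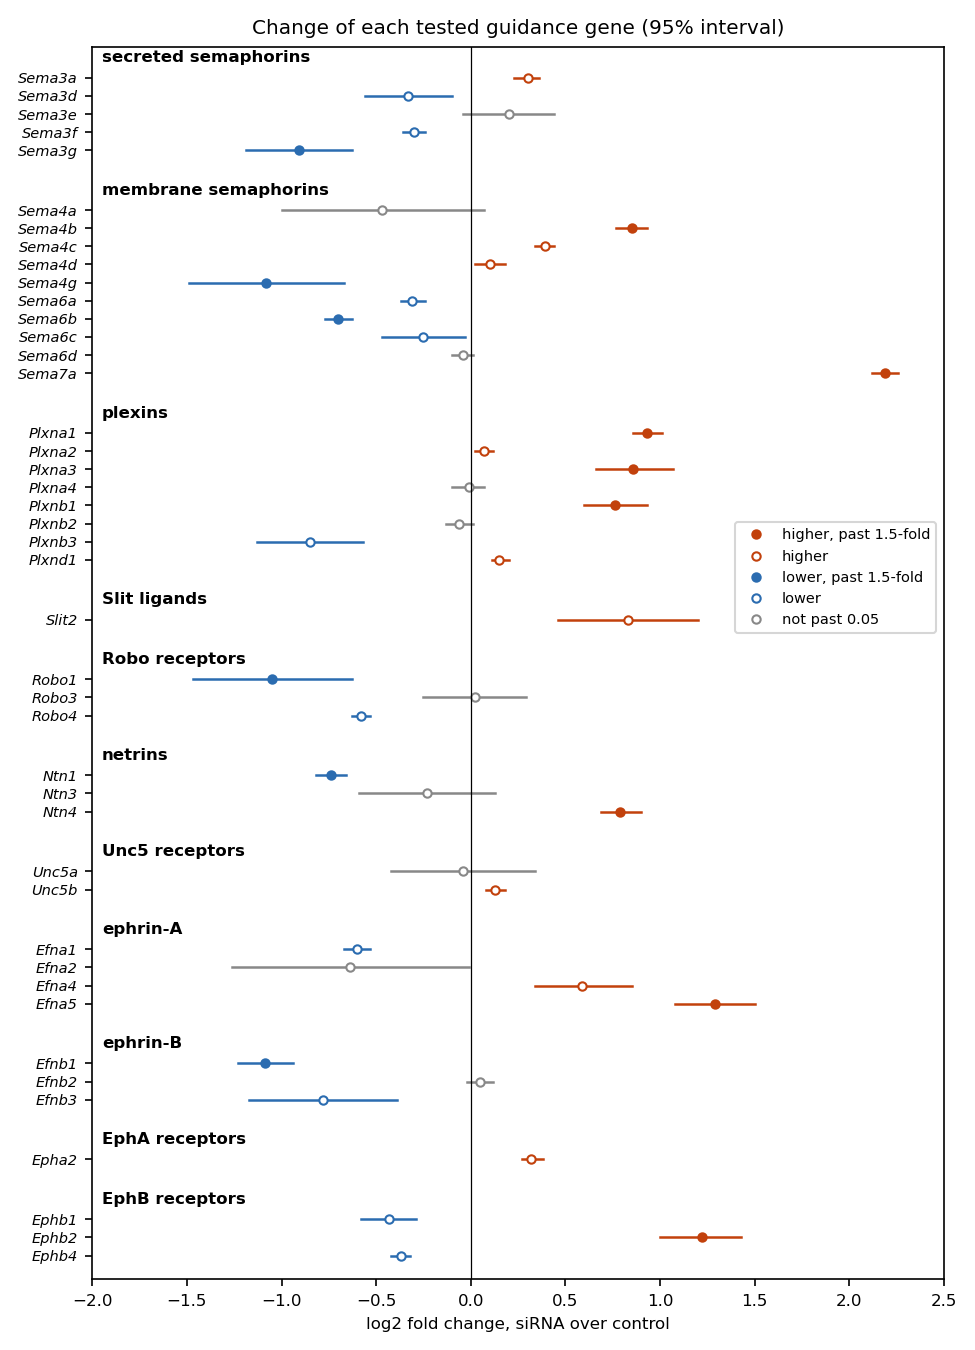
Log2 fold change (siRNA over control) of each of the 43 tested guidance genes with its 95% interval, grouped by ligand and receptor class; filled points passed the test against a 1.5-fold change. Sema7a, at 2.19, lies apart from the other genes at the right edge, and Efnb1, Sema4g and Robo1 are at the left, from −1.09 to −1.05.

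To compare genes with each other, counts were also divided by the length of the longest coding transcript and scaled, giving a level per length. Which transcripts the cells make was not measured. The SD of such a level covers the scatter of libraries and not the error of the assumed length. On this scale 1 gene made up most of nearly every receptor class in control cells. Plxnd1, which encodes the plexin that binds semaphorin 3E directly, stood at 408 ± 12.7 (SD, n = 5) and was 75.5% of the plexin level. It was followed among all guidance genes by Ephb4 (262 ± 9.79), Unc5b (221 ± 5.18), Efna1 (164 ± 5.92), Sema3f (139 ± 4.51), Sema3a (135 ± 7.38) and Robo4 (129 ± 2.32). Sema3a differed from its neighbours Sema3f and Robo4 by no more than about its own spread, and so did Sema7a (67.8 ± 2.34), Sema6d (67.5 ± 0.628) and Ntn1 (67.2 ± 3.45) from one another. Ephb4 was 96.4% of the EphB level, Unc5b 99.5% of the Unc5 level, Epha2 99.5% of the EphA level and Robo4 98.5% of the Robo level. The semaphorins were more divided, with Sema3f at 49.7% and Sema3a at 48.1% of the secreted class. Sema4c, the highest membrane semaphorin, was at 25.5% of its class. In the other ligand classes 1 gene again made up most of the level. Efna1 was 95.3% of the ephrin-A, Ntn1 83.9% of the netrin, Efnb2 72.2% of the ephrin-B and Slit2 71.9% of the Slit level.

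**Figure D2:**
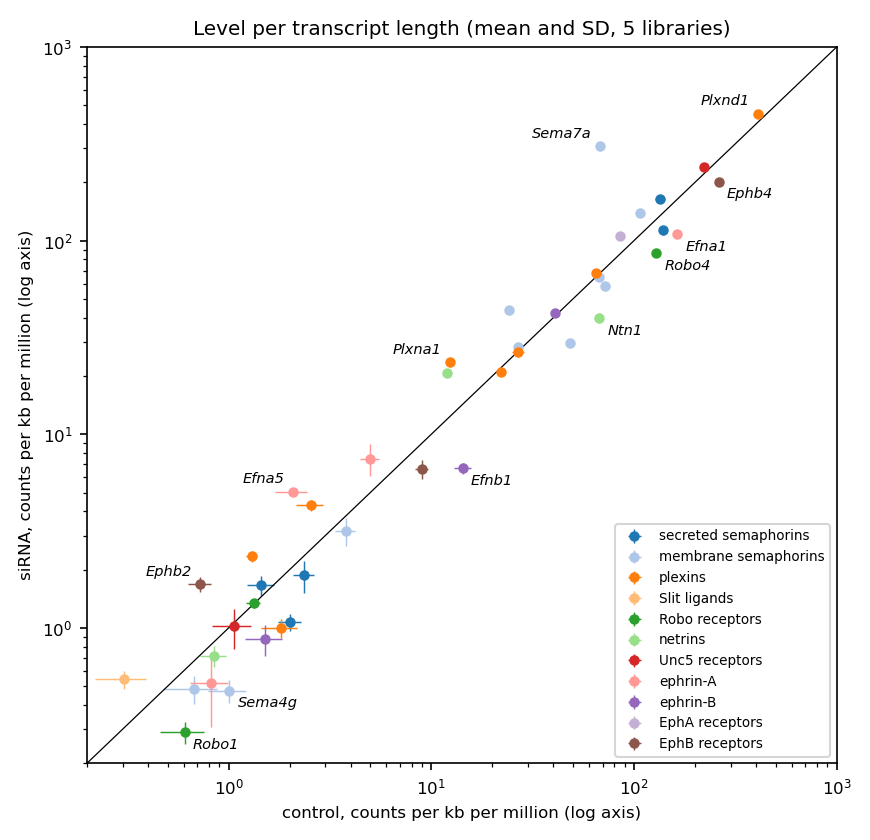
Mean level of each tested guidance gene in control (horizontal) and siRNA libraries (vertical), as scaled counts per kb of transcript on log axes, with bars for the SD of 5 libraries, colours for classes and a line of equal level. Plxnd1 is highest in both groups (408 and 452), and Sema7a, at 67.8 and 307, lies farthest above the line.

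Sema7a had the largest change among the 43 tested guidance genes. It encodes a semaphorin held on the cell surface by a lipid anchor, which binds integrin β1 and plexin C1 (Entrez gene 20361, GRCm38.p6 chromosome 9, 57939596 to 57962865). Listed by replicate number from 1 to 5, as for every gene below, the control libraries were at 78.2, 82.0, 84.4, 84.7 and 77.9 CPM. After siRNA it was at 355, 363, 363, 368 and 405 CPM. The groups were far apart, and the fifth siRNA library was the highest of its group. The rise was 4.55-fold, or 2.19 on the log2 scale (SE 0.0333, adjusted p = 2.89e-30, edgeR). Per length, Sema7a went from 16.2% ± 0.482 to 45.4% ± 1.40 of the membrane semaphorin level (SD, n = 5). In control it stood level with Sema6d (16.1%) and close to Sema6a (17.2%), and after siRNA it was the highest of its class. Of its receptors, Plxnc1 was all but undetected, with 7 counts over the 5 control libraries and 6 over the 5 siRNA libraries. The integrin genes Itgb1 and Itga1, named after their values were seen, had log2 fold changes of 0.33 and −0.77.

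A promoter of Sema7a is shown because this gene had the largest change among the tested guidance genes. The window is chr9:57939862-57940161 on the plus strand (RefSeq, GRCm38.p6), around the start of the first promoter listed for the gene. It runs from 250 bases before to 50 bases after that start, and 67.3% of its bases are G or C. The coordinates of the gene begin upstream of this window, at 57939596, and bases upstream of the window are not shown. Capitals mark matches to the letters GGGCGG (GC box, 2 matches) and GGAAAA (NFAT core, 1 match, on the minus strand, so that it reads as its reverse complement here).
Sema7a promoter: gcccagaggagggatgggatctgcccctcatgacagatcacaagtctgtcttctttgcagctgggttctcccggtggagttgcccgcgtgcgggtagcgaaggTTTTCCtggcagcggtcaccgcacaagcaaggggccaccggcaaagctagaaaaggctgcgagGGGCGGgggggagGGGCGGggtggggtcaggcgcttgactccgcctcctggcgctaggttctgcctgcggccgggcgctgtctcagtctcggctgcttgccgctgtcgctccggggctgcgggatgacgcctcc
Both strands were searched for 6 motifs. None of TGANTCA (AP-1), TGACGTCA (cyclic AMP response element), CCGGAA (ETS core) or CACGTG (E box) occurs in this window. RefSeq gave 67 promoters for 51 of the 60 guidance genes, and GGGCGG occurred in 48 of them (71.6%), where 35.7% of all 32851 promoters of this length held it. Those 32851 were not limited to genes tested here and were not matched for G and C content, so the difference cannot be tied to guidance genes as such. The shares for the other motifs were 4.48% against 7.81% for TGANTCA, 1.49% against 1.79% for TGACGTCA, 10.4% against 14.9% for CCGGAA, 16.4% against 23.4% for GGAAAA and 5.97% against 7.15% for CACGTG. A match describes the letters and is not a binding site.

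Among the other membrane semaphorins, Sema4b rose and Sema6b and Sema4g fell past 1.5-fold. Sema4b, a class 4 transmembrane semaphorin (Entrez gene 20352), was at 33.5, 34.0, 37.3, 36.0 and 34.1 CPM in control and at 67.5, 60.9, 60.2, 63.7 and 63.4 CPM in siRNA libraries. No siRNA library came near the control range (log2 fold change 0.85, SE 0.0395, adjusted p = 9.66e-23). Sema6b, a transmembrane ligand of plexin A4 (Entrez gene 20359), was at 64.7, 66.9, 64.8, 64.8 and 66.4 CPM in control and at 40.1, 38.2, 41.5, 41.6 and 40.7 CPM in siRNA libraries. Both groups were tight (log2 fold change −0.70, SE 0.0352, adjusted p = 1.82e-21). Sema4g, another class 4 gene (Entrez gene 26456), rested on few reads, 24 to 37 counts in a control library and 12 to 17 in an siRNA library. Its levels were 1.34, 2.06, 1.33, 2.04 and 1.63 CPM in control and 0.712, 0.658, 0.933, 0.823 and 0.825 CPM after siRNA. The groups did not overlap (log2 fold change −1.08, SE 0.204), but the test against 1.5-fold (adjusted p = 0.0282) was lost on leaving out control replicate 2 (0.0956), control replicate 4 (0.0877), siRNA replicate 1 (0.0626) or siRNA replicate 2 (0.0758).

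The other tested members of the class, of high and low level, did not pass the test against 1.5-fold. Sema4c, which encodes a ligand of plexin B2 and was the highest membrane semaphorin per length in control cells, was at 151, 149, 155, 153 and 149 CPM there and at 198, 194, 190, 206 and 204 CPM after siRNA. Every siRNA library exceeded every control library (log2 fold change 0.39, SE 0.0264, adjusted p = 3.78e-17), and 7.27% of the exon bases of Sema4c are shared with a gene on the opposite strand. Sema6a, a ligand of plexins A2 and A4, fell from 181 ± 7.89 to 146 ± 6.54 CPM (log2 fold change −0.31). Sema6c fell by 0.25 on the log2 scale (adjusted p = 0.0373) and Sema4d, the ligand of plexin B1, rose by 0.10 (adjusted p = 0.0296), both with overlapping groups. Sema6c lost its call on leaving out any of 7 single libraries (adjusted p up to 0.126), namely control replicates 2, 3, 4 and 5 and siRNA replicates 2, 3 and 5, and with DESeq2 (0.0749). Reads of Sema4d were divided between genes in all 10 libraries, and its call was lost without control replicate 1 or 5 or siRNA replicate 2, 3 or 4 (adjusted p up to 0.0894), with DESeq2 (0.0634) and with upper-quartile factors (0.0743). Sema6d, a plexin A1 ligand, was at 159 ± 2.32 and 154 ± 3 CPM and did not pass (log2 fold change −0.04, 95% interval −0.10 to 0.01). Sema4a, below 1 CPM in both groups, did not pass either. The per-length sum of the class went from 412 to 423 in control libraries to 657 to 699 in siRNA libraries.

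**Figure D3:**
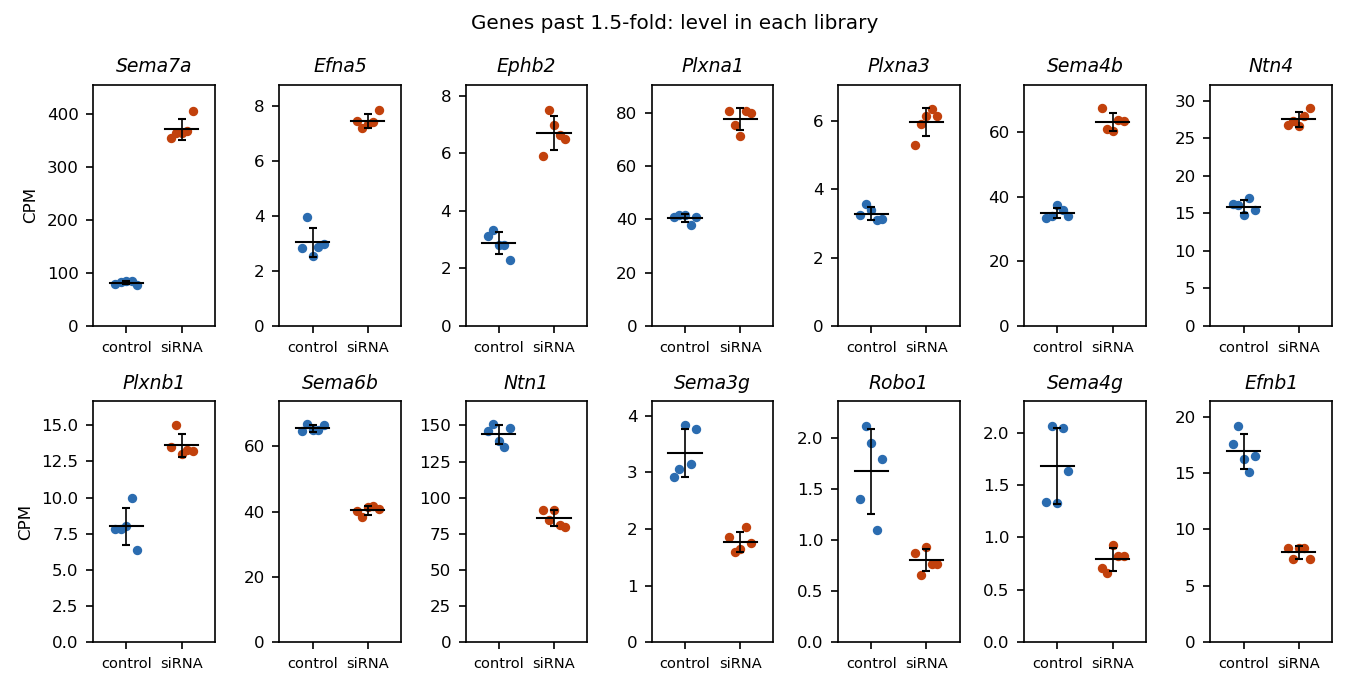
CPM in each of the 5 control and 5 siRNA libraries for the 14 guidance genes past 1.5-fold, with the mean and SD of each group as bars and each axis from 0. In all 14 panels the groups do not overlap, with Sema7a between 77.9 and 84.7 CPM in control and between 355 and 405 CPM in siRNA libraries.

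Secreted semaphorins changed in opposite directions, and their summed levels overlapped between the groups. Sema3f, the ligand of neuropilin-2 (Entrez gene 20350), was at 170, 181, 167, 175 and 169 CPM in control and at 145, 135, 142, 148 and 132 CPM in siRNA libraries. All siRNA values lay below all control values (log2 fold change −0.30, SE 0.0295, adjusted p = 1.02e-11). Sema3a, the ligand of neuropilin-1, rose from 292 ± 17.3 to 358 ± 11.0 CPM (log2 fold change 0.30, adjusted p = 1.89e-08). Per length Sema3f thereby went from 49.7% ± 1.64 to 39.9% ± 1.59 of the class and Sema3a from 48.1% ± 1.59 to 58.4% ± 1.62 (SD, n = 5). With the lengths used (5930 bases for Sema3a and 3395 for Sema3f), the shares lay within their spread of each other in control. They were apart after siRNA, with Sema3a above Sema3f. This order within a group depends on the lengths, whose error the SD does not cover. The class sum was 271 to 294 in control and 274 to 292 in siRNA libraries, with full overlap.

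Sema3g, a secreted semaphorin known from endothelium (Entrez gene 218877), was at 2.91, 3.06, 3.83, 3.15 and 3.76 CPM in control and at 1.86, 1.59, 1.65, 2.03 and 1.76 CPM after siRNA. It was lower in all 5 siRNA libraries, by −0.91 on the log2 scale (SE 0.139, adjusted p = 2.18e-07). The adjusted p against 1.5-fold was 0.0377. It was 0.0573 in a fit with no filter, and also over 0.05 without control replicate 3 (0.116), control replicate 5 (0.105), siRNA replicate 2 (0.0959), siRNA replicate 3 (0.0843) or siRNA replicate 5 (0.0642). Sema3d fell by 0.33 (adjusted p = 0.0092), a call lost without control replicate 4 or siRNA replicate 2 (adjusted p up to 0.053). Sema3e, the direct ligand of plexin D1, was at 3.63 ± 0.568 and 4.17 ± 0.521 CPM and did not pass (log2 fold change 0.20, 95% interval −0.04 to 0.44). Per length it stood at 1.45 ± 0.223 in control, beside 408 ± 12.7 for the gene of its receptor, Plxnd1.

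Of 8 tested plexin genes 5 rose, 1 fell and 2 did not pass. The called share of 75% was near the 71.3% of all tested genes. Plxna1, the plexin that receives semaphorin 3A together with neuropilin-1 (Entrez gene 18844), was at 40.9, 41.7, 41.7, 38.0 and 41.1 CPM in control and at 80.7, 75.5, 71.3, 80.6 and 80.1 CPM after siRNA. Every siRNA library lay far above the control range (1.91-fold, log2 fold change 0.93, SE 0.0378, adjusted p = 8.67e-25). A gene on the opposite strand shares 10.7% of the exon bases of Plxna1, and no strand setting is given, so reads of the 2 genes may be mixed there. How many was not measured. Plxna3, a plexin for semaphorin 3F, was at 3.24, 3.56, 3.39, 3.09 and 3.14 CPM in control and at 5.31, 5.92, 6.15, 6.36 and 6.16 CPM after siRNA. It too was higher in every siRNA library (log2 fold change 0.86, SE 0.102, adjusted p = 5.04e-10). Plxnb1, the receptor of semaphorin 4D, was at 7.83, 7.84, 8.06, 9.94 and 6.39 CPM in control and at 13.5, 15, 13, 13.3 and 13.2 CPM after siRNA. The groups were apart (log2 fold change 0.76, SE 0.0803), but the adjusted p of 0.0456 against 1.5-fold held without only 3 of the 10 libraries, control replicate 4 (0.00221) and siRNA replicates 3 (0.0403) and 5 (0.0482). It was 0.0841, 0.0817, 0.0639 and 0.263 without control replicates 1, 2, 3 and 5, and 0.0589, 0.148 and 0.0553 without siRNA replicates 1, 2 and 4. With upper-quartile factors it was 0.0734.

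The abundant plexins moved little. Plxnd1 (Entrez gene 67784) was at 994, 1073, 1006, 1038 and 1023 CPM in control and at 1175, 1146, 1127, 1127 and 1139 CPM in siRNA libraries. The groups did not overlap, but the difference was only 1.11-fold (log2 fold change 0.15, SE 0.0234, adjusted p = 1.57e-07). Plxna2, a receptor of class 6 semaphorins, rose by 0.07 (262 ± 5.79 to 275 ± 7.64 CPM, adjusted p = 0.0108). Plxna4 and Plxnb2, at 126 ± 7.77 and 52.6 ± 1.18 CPM in control, did not pass, with 95% intervals of −0.10 to 0.07 and −0.13 to 0.01 on the log2 scale. The far less abundant Plxnb3 fell from 4 ± 0.807 to 2.22 ± 0.238 CPM (log2 fold change −0.85, adjusted p = 7.64e-07). Plexin D1 kept 75.5% of the plexin level per length in both groups.

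Of 3 tested Robo receptor genes 2 were called, both lower, and the 1 tested Slit gene was higher. The called share of the Robo genes, 66.7%, was near the 71.3% of all tested genes. Robo4, the Robo family member of endothelial cells (Entrez gene 74144), was at 231, 239, 231, 231 and 232 CPM in control and at 154, 159, 153, 154 and 159 CPM in siRNA libraries. Every siRNA library lay below every control library, and the fitted level was 66.9% of control (log2 fold change −0.58, SE 0.0247, adjusted p = 5.03e-24). The change was 1.49-fold, so it did not pass the test against 1.5-fold. Robo1, the broadly expressed Slit receptor (Entrez gene 19876), was at 1.40, 2.11, 1.95, 1.10 and 1.79 CPM in control and at 0.876, 0.658, 0.933, 0.768 and 0.770 CPM after siRNA. Its lowest control library was near the highest siRNA library, and a library held only 12 to 38 counts (log2 fold change −1.05, SE 0.208, adjusted p = 2.03e-05). Its adjusted p against 1.5-fold was 0.0438, and it was 0.0516 in a fit with no filter. It was also over 0.05 without control replicate 2 (0.156), 3 (0.111) or 5 (0.0821), or without siRNA replicate 2 (0.113), 4 (0.0806) or 5 (0.0800). Robo3 did not pass (95% interval −0.25 to 0.29).

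Slit2, the only Slit gene with enough counts (Entrez gene 20563), was at 1.01, 1.11, 1.56, 1.21 and 0.673 CPM in control and at 2.08, 1.81, 2.25, 1.70 and 2.09 CPM after siRNA. It was higher in each siRNA library (log2 fold change 0.83, SE 0.185, adjusted p = 0.000113) and did not pass the test against 1.5-fold (adjusted p = 0.286). Per length the whole Slit class reached at most 0.677 in a library, beside Robo sums of 129 to 135 in control and 85.4 to 89.6 in siRNA libraries. These sums were nearly all Robo4 (98.5% in control and 98.1% after siRNA). Robo1 alone was at 0.607 ± 0.15 in control and 0.289 ± 0.0375 after siRNA. Whether Slits act through either receptor in these cells was not tested.

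The netrins changed in opposite directions. Ntn1, the founding secreted netrin (Entrez gene 18208), was at 146, 151, 139, 135 and 148 CPM in control and at 91.7, 84.7, 91.8, 81.4 and 80.1 CPM after siRNA. It was lower in every siRNA library, at 59.8% of control (log2 fold change −0.74, SE 0.0385, adjusted p = 2.15e-14). Ntn4, a laminin-related netrin of basement membranes (Entrez gene 57764), was at 16.2, 16.1, 14.8, 17.0 and 15.4 CPM in control and at 26.8, 27.3, 26.7, 28.0 and 29.1 CPM after siRNA. It was higher in every siRNA library (log2 fold change 0.79, SE 0.0511, adjusted p = 7.32e-18). Per length Ntn4 went from 15% ± 1.03 to 33.7% ± 2.16 of the netrin level (SD, n = 5), while the class sum went from 76.2 to 83.7 down to 59.7 to 63.6. Ntn3, at 1.56 and 1.33 CPM, did not pass.

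Of the netrin receptors of the Unc5 family, Unc5b (Entrez gene 107449), the endothelial member, was at 463, 486, 468, 468 and 479 CPM in control and at 520, 512, 490, 542 and 518 CPM after siRNA. The groups did not overlap, with a small rise of 0.13 on the log2 scale (SE 0.0247, adjusted p = 1.41e-05). Unc5a, at 1.54 and 1.49 CPM, did not pass.

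Of the 4 tested ephrin-A genes 3 were called, 2 higher and 1 lower. This share of 75% was near the 71.3% of all tested genes. Efna1, a lipid-anchored ligand of EphA2 (Entrez gene 13636), was at 97.3, 97.6, 102, 101 and 91.3 CPM in control and at 68.0, 62.6, 61.9, 65.9 and 64.3 CPM after siRNA. It was lower in every siRNA library, at 66.0% of control (log2 fold change −0.60, SE 0.0332, adjusted p = 4.35e-20), and did not pass the test against 1.5-fold. Efna5, which also binds EphB2 (Entrez gene 13640), was at 2.85, 3.95, 2.56, 2.87 and 2.97 CPM in control and at 7.45, 7.19, 7.35, 7.41 and 7.87 CPM after siRNA. Its rise of 2.45-fold came next after that of Sema7a (log2 fold change 1.29, SE 0.104, adjusted p = 9.10e-15). Efna4 rose from 2.91 ± 0.322 to 4.39 ± 0.823 CPM (log2 fold change 0.59, adjusted p = 5.86e-05), and a gene on the opposite strand shares 10.5% of its exon bases. Efna2, under 1 CPM, did not pass (adjusted p = 0.0651). Since Efna1 made up 95.3% of the ephrin-A level per length in control, the class sum went down with it, from 163 to 178 in control to 114 to 127 in siRNA libraries.

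Epha2, the receptor of ephrin-A1 and the one tested EphA gene (Entrez gene 13836), was at 120, 123, 119, 123 and 121 CPM in control and at 153, 151, 145, 152 and 158 CPM after siRNA. It was higher in every siRNA library (log2 fold change 0.32, SE 0.0269, adjusted p = 2.44e-14), while the level of its ligand gene Efna1 was lower.

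In the ephrin-B class Efnb2 did not pass and its relatives fell. Efnb2, the ligand of EphB4 and a gene of arteries and lymphatic valves (Entrez gene 13642), was at 69.1, 73.7, 72.7, 75.1 and 67.7 CPM in control and at 77.5, 73.4, 74.7, 74.3 and 71.0 CPM after siRNA. The groups overlapped, and the 95% interval of the log2 fold change of 0.05 ran from −0.02 to 0.12 (adjusted p = 0.181). Efnb1, another transmembrane ephrin (Entrez gene 13641), was at 17.6, 19.2, 16.2, 15.1 and 16.5 CPM in control and at 8.32, 7.35, 8.40, 8.39 and 7.37 CPM after siRNA. Its fall, to 47.0% of control, was by a small margin over Sema4g the largest among the tested guidance genes (log2 fold change −1.09, SE 0.0719, adjusted p = 1.74e-17). Efnb3 fell from 1.76 ± 0.364 to 1.02 ± 0.185 CPM (log2 fold change −0.78, adjusted p = 0.000401). Per length Efnb2 thereby went from 72.2% ± 2.11 to 84.8% ± 0.588 of the ephrin-B level (SD, n = 5).

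The EphB receptors changed in both directions. Ephb4, the receptor of ephrin-B2 in veins and lymphatic vessels (Entrez gene 13846), was at 405, 431, 398, 411 and 425 CPM in control and at 331, 322, 319, 326 and 304 CPM after siRNA. All siRNA libraries lay below all control libraries, at 77.4% of control (log2 fold change −0.37, SE 0.0257, adjusted p = 9.19e-17). Ephb1 fell from 15.3 ± 1.11 to 11.3 ± 1.28 CPM (log2 fold change −0.43, adjusted p = 6.51e-07). Ephb2, a receptor of ephrin-B ligands and of ephrin-A5 (Entrez gene 13844), was at 3.13, 3.34, 2.83, 2.82 and 2.30 CPM in control and at 5.91, 7.51, 6.97, 6.64 and 6.49 CPM after siRNA. It rose 2.32-fold (log2 fold change 1.22, SE 0.108, adjusted p = 1.96e-13), but per length it reached only 0.801% of the EphB level. Since Ephb4 made up most of the class, the EphB sum went from 259 to 283 in control to 198 to 218 in siRNA libraries.

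**Figure D4:**
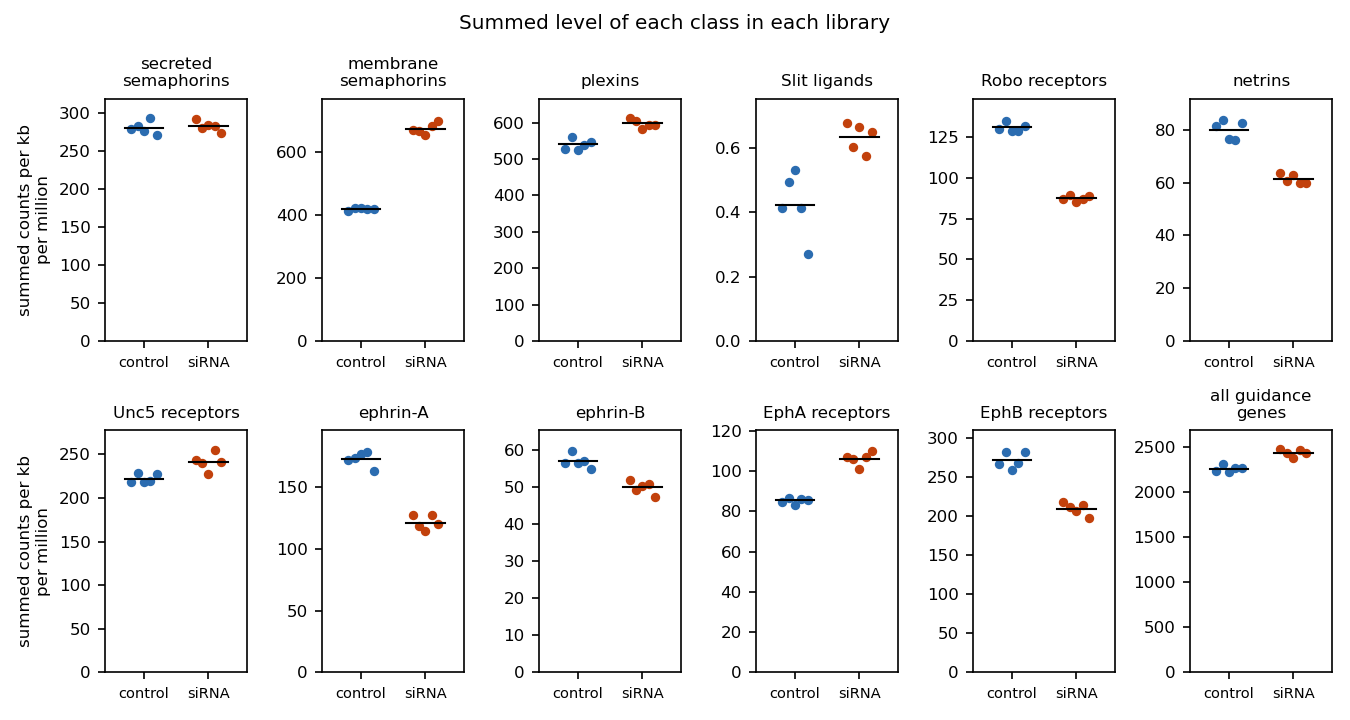
Summed level of each class, as scaled counts per kb of transcript, in each of the 5 control and 5 siRNA libraries, with the group mean as a line and each axis from 0. Membrane semaphorins, plexins, EphA and Slit sums lie higher and Robo, netrin, ephrin-A, ephrin-B and EphB sums lower in siRNA libraries, and the secreted semaphorins and Unc5 receptors overlap.

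Summed over all 60 genes, the per-length level was 2226 to 2316 in control and 2374 to 2474 in siRNA libraries. The membrane semaphorins, through Sema7a, held the largest difference of any class, from a mean of 420 ± 4.33 to 676 ± 16.0 (SD, n = 5).

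The 17 genes under the filter on low counts had at most 20 counts in any library and were not tested in the main comparison. They were Efna3, Epha1, Epha4, Epha6, Epha7, Epha10, Ephb3, Ephb6, Ntn5, Plxnc1, Robo2, Sema3b, Sema3c, Sema4f, Sema5a, Slit1 and Unc5d. In a fit with no filter, Sema5a, a semaphorin with thrombospondin repeats, was lower, with 53 counts over the control libraries and 10 over the siRNA libraries (log2 fold change −2.35, adjusted p = 6.96e-07). Sema3b was also lower there, with 51 and 28 counts (adjusted p = 0.0288). Epha10 had 5.01 counts in control and 0 after siRNA (adjusted p = 0.027), and Epha4 and Epha7 had 4 and 2 counts in control and 0 after siRNA, at which no fold can be given.

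Partner genes were taken from 4 lists, of co-receptors and of proteins that act downstream of the receptors. Of their 84 genes, 76 were tested, and 23 were higher (30.3%, beside 36.1% of all tested genes), 32 lower (42.1%, beside 35.2%) and 21 not past, with a median log2 fold change of −0.04. The called share, 72.4%, was near the 71.3% of all tested genes. Among 17 tested co-receptors and related surface proteins, 5 were higher (29.4%) and 9 lower (52.9%), with a median of −0.25. Both neuropilins, the partners of plexins for class 3 semaphorins, were among those that fell. Nrp2 was at 857, 884, 827, 816 and 923 CPM in control and at 484, 483, 460, 447 and 446 CPM after siRNA, 53.9% of control. Nrp1 fell as well, from 14.1 ± 1.13 to 8.04 ± 0.611 CPM (adjusted p = 3.41e-13). In the same libraries the plexin genes Plxna1 and Plxna3 rose. Gpc1, a heparan sulfate proteoglycan that binds Slits, rose from 0.768 to 1.73 CPM (log2 fold change 1.17), and Rgma, a ligand of neogenin, fell from 0.891 to 0.450 CPM (−0.97).

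Among 18 tested semaphorin and plexin effectors, 3 were higher (16.7%, beside 36.1% of all tested genes) and 9 lower (50%, beside 35.2%), with a median of −0.07. Crmp1 and Dpysl3, both of the collapsin response mediator family that binds tubulin, moved apart, with Crmp1 rising by 0.76 (22.1 to 37.4 CPM) and Dpysl3 at −0.62 (89.0 to 58.0 CPM). Of 23 Slit and netrin effectors 8 were higher (34.8%) and 7 lower (30.4%), with a median of 0.00. The actin regulator gene Vasp rose by 0.78 (115 to 197 CPM), and Dapk1, a kinase that binds Unc5b, rose by 0.58 (38.1 to 57.1 CPM). Of 18 tested Eph and ephrin effectors 7 were higher and 7 lower (38.9% each), with a median of −0.02. Ngef, an exchange factor for small GTPases bound by EphA receptors, rose by 3.07 from a level near detection (0.211 ± 0.127 to 1.82 ± 0.472 CPM), and Rgs3, which acts downstream of ephrin-B, was at −0.74 (105 to 62.8 CPM).

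An earlier search of these data tied the 7-base word GTAAAGA in 3′ UTRs to lower fold changes, so its presence in guidance genes is given here as a description. Of all tested genes other than Kdr with an annotated 3′ UTR (GENCODE M21, GRCm38), 1525 (12.9%) carried it, with a median log2 fold change of −0.13, and 10296 did not, with a median of 0.02. Of the 43 tested guidance genes, 6 (14%) carried it, with a median of −0.32, and 37 did not, with a median of 0.02. Of the 6 carriers 1 was higher (Sema3a) and 3 were lower (Efna1, Efnb1 and Robo1), and Plxna4 and Sema6d did not pass. Over all tested genes, 363 of the 1525 carriers were higher and 787 lower, so falls outnumbered rises there too. The 37 other guidance genes held 16 of the rises and 13 of the falls, beside 3935 and 3393 of the 10296 other genes. The part of the word in these values was not tested. The sites of the 4 called carriers are shown, with the word in capitals, on the strand of each gene: chr3:89272146-89272168 (minus) for Efna1, chrX:99148916-99148938 (plus) for Efnb1, chr16:73045179-73045201 (plus) for Robo1 and chr5:13600224-13600246 (plus) for Sema3a.
Efna1: tgaacttgGTAAAGAcgtccttc
Efnb1: gaaataatGTAAAGAtgttttgt
Robo1: ccaattgaGTAAAGAcatcccta
Sema3a: aatatgcaGTAAAGAttagctgt
Outside the word the 4 sites differ in their letters. Sema7a, Robo4, Ephb4 and Efnb2 do not carry the word in the UTR searched.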

How the data were processed

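The deposited table holds 1 expected count per gene and library for 16251 genes, made by the authors before deposit and not normalized. Per the submitters' processing notes, the build was GRCm38.p6 and the tools included RSEM 1.3.1, Bowtie2 2.4.5 and HISAT2 2.2.1. The sources used here give neither their roles nor the annotation or strand setting. Counts were rounded and fitted over the whole table with edgeR 4.0.16 (R 4.3.3), using TMM factors and filterByExpr at a minimum of 10 counts. The quasi-likelihood model was robust and held group alone, and p-values were adjusted by Benjamini-Hochberg at 0.05. This left 12161 genes. The glmTreat function tested against a fold of 1.5. The steps were also run on simulated data with far fewer changed genes than were called here. That run does not test them at the share of called genes seen in these data. CPM used TMM-scaled library sizes. Levels per length used the longest coding transcript of GENCODE M21 (GRCm38), found for all 60 guidance genes. Coordinates are RefSeq's.

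Members, lists and tests were chosen with earlier results of these data known. Values in every library are given for Sema7a, Robo4, Ephb4 and Efnb2, for members past 1.5-fold and for the highest member of each class. Named partner genes are the neuropilins and, of each list, the 2 called genes with the largest change, and genes outside this rule are said to be so. Alternatives were DESeq2 1.42.0, limma-voom (limma 3.58.1), upper-quartile or RLE factors, each library left out, a block for replicate number, and testing of all genes or only those averaging 5 CPM or more. Pairs of libraries within a group differed beyond sampling noise, so none was counted as a repeat of the same library. Chi-square divided by degrees of freedom was 1.50 to 3.47. This value cannot tell separate cultures from separate preparations of the same culture. Depth was near equal across libraries. The coefficient of variation that edgeR names biological was 2.85%, a spread that may be technical alone.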

Additional observations from a re-analysis of the deposited data

Results flagged for a closer look

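Among 86 sets of 5 libraries (each tested gene in each group), 5 held 1 library set apart from the others by Dixon's criterion, and chance gives about 1 in 20. Sema7a was highest in siRNA replicate 5, at 405 CPM, with the others from 355 to 368 CPM. Robo4 was highest in control replicate 2, at 239 CPM, with the others from 231 to 232 CPM. Plxna1 was lowest in control replicate 4, at 38.0 CPM, with the others from 40.9 to 41.7 CPM. Plxnb1 was highest in siRNA replicate 2, at 15 CPM, with the others from 13 to 13.5 CPM. Sema6c was lowest in control replicate 1, at 4.47 CPM, with the others from 5.56 to 6 CPM. These libraries differ from gene to gene.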

How the results depend on the processing

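Over the 43 tested genes and all alternatives, 683 values kept direction and side of the threshold. Of the others, 18 lost a call (Sema3d, Sema4d and Sema6c) and 6 gained one, all lower (Efna2, Plxnb2, Sema4a and Sema6d). Another 8 turned direction, all for genes that did not pass: with each library left out, Plxna4 ranged from −0.038 to 0.0267, Robo3 from −0.0164 to 0.0589 and Unc5a from −0.164 to 0.0504 on the log2 scale. With a mean of at least 5 CPM required, which tests fewer genes, 10 members were lower, and 5 higher and 3 lower ones passed 1.5-fold. With each library left out, members lower past 1.5-fold ranged from 3 to 7 (3 without siRNA replicate 2) and those higher from 7 to 8. The genes that lost this call were Plxnb1, Robo1, Sema3g and Sema4g, and the cause was not tested. Kdr stayed between −2.86 and −2.80.

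Libraries with the same replicate number did not deviate together (correlations from −0.0745 to 0.0198, and no library matched its own number best), so the numbers give no pairing. With the replicate number as a block, 17 members were higher and 15 lower, 8 and 5 past 1.5-fold, 23 partner genes were higher and 32 lower, and Kdr was at −2.84. Under the block Robo1 lost its call against 1.5-fold (adjusted p = 0.0519) and Sema6c its call (0.0542). Few counts limit the called genes Robo1, Sema4g, Slit2 and Efnb3, among others. They also limit Efna2, Sema4a, Unc5a and Ntn3, which did not pass, and the 17 genes under the filter.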
